A study of Mus musculus with 14 samples.

Results

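The genes described are 8 that conducting-airway secretory cells of the mouse are known to express: Scgb1a1, Scgb3a1, Scgb3a2, Cyp2f2, Bpifa1, Bpifb1, Muc5b and Reg3g. They were matched by name in each deposited table, with no filter on low values. In the alveolar type 1 (AT1) cell table and in the whole-lung table, all 8 had a row among 23793 loci. In the alveolar type 2 (AT2) cell table, 5 of the 8 had a row among 32609 loci, and Scgb1a1, Scgb3a2 and Reg3g were not analysed there. Expression was measured by RNA-seq in 14 libraries of mice with a mutation of Nkx2-1 and of controls. AT1 cells, flow-sorted at P5 (postnatal day 5), gave 3 control and 3 mutant libraries (A, B and C in each arm), and whole lobes at P14 gave 1 control and 1 mutant library, from crosses named Nkx2-1;Aqp5. AT2 cells from crosses named Nkx2-1;Sftpc gave 3 control and 3 mutant libraries, with A and B taken at P8 and C at P9 in each arm. Aqp5 is a gene of AT1 cells and Sftpc a gene of AT2 cells. The sources used here do not state the alleles, the part of Nkx2-1 that was deleted, what the controls carried, whether animals were pooled or how AT2 cells were isolated. Nothing in the labels says that the libraries of an arm came from separate animals, so p-values measure the spread between these libraries only.

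The secretory lining of the airways is shared between club cells and goblet cells. Club cells release small secretoglobin proteins and detoxify inhaled compounds with cytochrome P450 enzymes, and goblet cells release mucins with trefoil factors and antimicrobial proteins. Cells of this lineage express Nkx2-1, a homeobox factor gene of the lung epithelium, and in mice airway injury or allergic inflammation is known to shift them from club towards goblet gene expression. Scgb1a1 encodes the main secretoglobin of club cells, Scgb3a2 a secretoglobin of the distal airways and Scgb3a1 one of the proximal airways. Cyp2f2 encodes a cytochrome P450 that activates naphthalene. Bpifa1 and Bpifb1 encode airway-lining proteins of the BPI fold family, Muc5b a gel-forming mucin and Reg3g an antimicrobial C-type lectin. The alveolar cells named on the labels of the sorted libraries are not known as the main source of any of these proteins.

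By GENCODE positions on mm10 (GRCm38), Scgb1a1 lies on chromosome 19 (9083636 to 9087958, minus strand) and Scgb3a1 on chromosome 11 (49663610 to 49665118, plus strand). Cyp2f2 (27119909 to 27133660) and Muc5b (141839070 to 141873084) are both on the plus strand of chromosome 7, and an antisense gene, Gm15883, overlaps Cyp2f2. Bpifa1 (154142880 to 154149219) and Bpifb1 (154190818 to 154220369) are neighbours on the plus strand of chromosome 2, and Reg3g (78466269 to 78468872) is on the minus strand of chromosome 6. Values are per gene and cover all exons of a locus. The sources used here do not say whether reads were counted by strand, so Cyp2f2 reads cannot be told apart from those of its antisense partner.

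RefSeq promoter windows of GRCm38.p6, each 300 bases long from 250 bases before a transcription start to 50 bases after it, were held for 5 of the 8 genes, with a pair of starts for Bpifb1. Windows of 3 genes that were higher in the mutant lung and of Cyp2f2, which was lower there, are printed 5′ to 3′ on the strand of the gene, with motif matches in capitals. The Bpifb1 window is the one of its windows that holds a match.
Scgb3a1 promoter, chr11:49663345-49663644, plus strand: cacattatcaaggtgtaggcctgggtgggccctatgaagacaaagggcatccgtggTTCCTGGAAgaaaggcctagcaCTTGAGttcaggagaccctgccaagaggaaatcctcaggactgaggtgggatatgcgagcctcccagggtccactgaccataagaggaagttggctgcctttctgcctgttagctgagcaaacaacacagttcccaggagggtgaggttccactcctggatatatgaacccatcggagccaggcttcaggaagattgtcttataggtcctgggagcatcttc
Bpifb1 promoter, chr2:154200130-154200429, plus strand: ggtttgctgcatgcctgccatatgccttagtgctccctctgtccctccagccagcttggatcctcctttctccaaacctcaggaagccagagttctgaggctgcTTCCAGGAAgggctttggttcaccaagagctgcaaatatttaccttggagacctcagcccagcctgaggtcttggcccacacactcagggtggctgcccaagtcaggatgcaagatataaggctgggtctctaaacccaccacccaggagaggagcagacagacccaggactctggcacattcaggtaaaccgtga
Reg3g promoter, chr6:78468825-78469124, minus strand: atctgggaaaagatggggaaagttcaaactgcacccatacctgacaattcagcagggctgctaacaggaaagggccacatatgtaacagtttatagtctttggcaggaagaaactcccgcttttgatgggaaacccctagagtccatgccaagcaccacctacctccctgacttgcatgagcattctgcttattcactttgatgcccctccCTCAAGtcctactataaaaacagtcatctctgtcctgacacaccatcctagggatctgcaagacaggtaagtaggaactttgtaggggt
Cyp2f2 promoter, chr7:27119705-27120004, plus strand: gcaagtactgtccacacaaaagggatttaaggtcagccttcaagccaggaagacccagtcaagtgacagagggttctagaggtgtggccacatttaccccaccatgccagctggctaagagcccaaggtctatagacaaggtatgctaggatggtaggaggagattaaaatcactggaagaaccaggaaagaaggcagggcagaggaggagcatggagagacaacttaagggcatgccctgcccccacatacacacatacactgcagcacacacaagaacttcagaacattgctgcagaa
Letters were searched on both strands. The NKX2-1 core CTCAAG was found in 3 of the 6 windows, where 15.9% of 32851 promoters of the same length held it. It lay 39 bases before the Reg3g start, and on the other strand (CTTGAG) 172 bases before the Scgb3a1 start and in the Bpifa1 window. A STAT motif (TTCNNNGAA) was found in 2 of the 6 windows, those of Bpifb1 and Scgb3a1 shown here, and in 8.3% of all promoters. The forkhead letters TGTTTAC and the C/EBP letters TTGCNNAA were in 0 of the 6 windows and in 3.65% and 10.8% of all promoters. No match overlapped another. A match describes the letters of the window and is neither a binding site nor a cause.

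Levels are in FPKM, fragments scaled by transcript length and by library size as the authors computed them, and can be set side by side between genes. The depth in reads is unknown. Differences are given on the log2(FPKM + 1) scale, which understates the change of low genes. Nkx2-1 measured 262, 281 and 239.8 FPKM in AT1 controls A, B and C and 22.8, 55.8 and 68.2 FPKM in mutants A, B and C. The AT2 controls had 247, 289 and 353 FPKM, the AT2 mutants 74.4, 59.0 and 73.4 FPKM, and control and mutant lung 101 and 52.1 FPKM. It was lower in each mutant library than in each control library of the same tissue. The 14 listed AT1 cell genes summed to 12691 to 16405 FPKM in AT1 controls and 2745 to 4744 FPKM in AT1 mutants. The 14 listed AT2 cell genes summed to 8993 to 19656 FPKM in the same controls and 3880 to 12386 FPKM in the mutants, so AT2 genes were abundant in libraries labelled AT1. In the AT2 table the 12 of these genes with a row summed to 87460 to 117270 FPKM in controls and 3392 to 5226 FPKM in mutants. AT1 control A and mutant A stood apart from the libraries of their arms in several airway genes, and results are given with and without them.

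Scgb1a1 led the 8 genes wherever it was measured. Its share of their summed FPKM was 83.9% to 90.3% over the AT1 libraries, 94.4% in control lung and 92.5% in mutant lung. In control lung it measured 20542 FPKM, followed by Scgb3a2 at 741, Cyp2f2 at 425, Scgb3a1 at 34.9, Reg3g at 3.22, Bpifb1 at 2.29, Muc5b at 1.05 and Bpifa1 at 0.122 FPKM. The AT1 controls had the same order of means, from 1986 ± 1966 FPKM (SD, n = 3) for Scgb1a1 down to 0.195 ± 0.160 FPKM for Bpifa1. There, only the step from Scgb1a1 to Scgb3a2 had no overlap between libraries, and each other pair of neighbours in the order overlapped. The mutant lung kept Scgb1a1 and Scgb3a2 in front, placed Scgb3a1 above Cyp2f2, and placed Muc5b above Reg3g and Bpifb1.

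**Figure D1:**
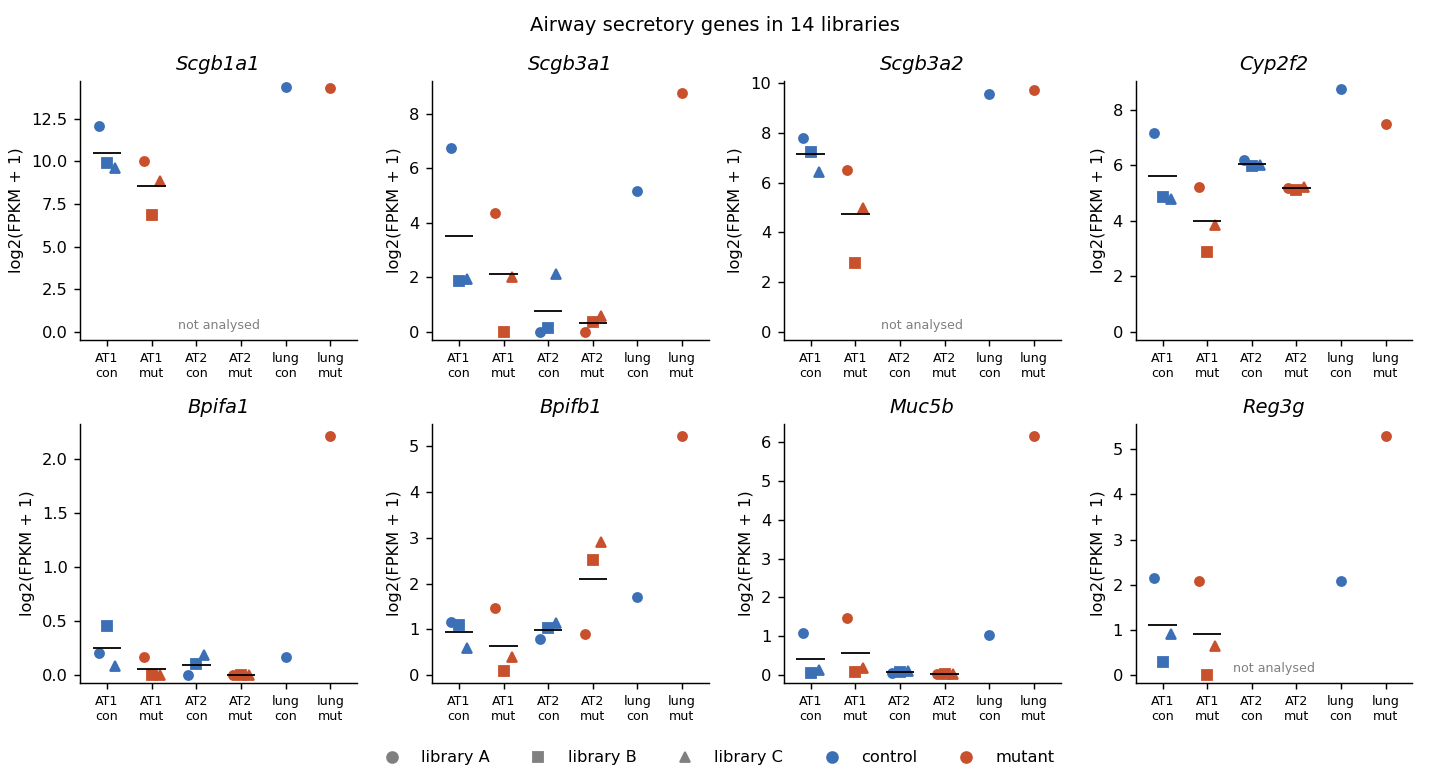
Level of each of the 8 genes as log2(FPKM + 1) on the y axis in control (blue) and mutant (orange) libraries of AT1 cells, AT2 cells and lung on the x axis; marker shapes give the library letter and black bars the mean of 3 libraries. Libraries lettered A are highest in both AT1 arms for Scgb1a1, Scgb3a1, Scgb3a2 and Cyp2f2, and 5 genes are far higher in the mutant lung than in the control lung.

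Control and mutant preparations of sorted AT1 cells were compared first. Scgb1a1, Scgb3a2 and Cyp2f2 had lower means in the mutants, but their libraries spread widely within each arm and the plain comparison called none of the 8 genes. Scgb1a1 measured 4254, 937 and 768 FPKM in controls A, B and C and 1048, 114 and 451 FPKM in mutants A, B and C. Mutant A was above controls B and C, so the arms overlapped. On the log2 scale the difference was -1.94 ± 0.88 (SE, 3 libraries per arm), with a limma adjusted p of 0.156. In bulk RNA, fewer cells of a type and less RNA per cell cannot be told apart.

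Scgb3a2, the distal secretoglobin, measured 223, 148 and 83.8 FPKM in controls and 89.0, 5.82 and 30.9 FPKM in mutants. Mutant A was just above control C, the only overlap between the arms. The log2 difference was -2.39 ± 0.83 (limma adjusted p = 0.0818). Cyp2f2 measured 143, 27.8 and 26.5 FPKM in controls and 35.8, 6.32 and 13.5 FPKM in mutants. Control A was far above every other library and mutant A was above controls B and C. The log2 difference was -1.62 ± 0.75 (limma adjusted p = 0.162).

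Scgb3a1, the proximal secretoglobin, was carried mainly by the libraries lettered A. Controls A, B and C had 105, 2.70 and 2.87 FPKM and mutants A, B and C had 19.8, 0 and 3.09 FPKM. The arms overlapped, and the log2 difference was -1.39 ± 1.46 (limma adjusted p = 0.529). Without control A it turned to 0.22 (adjusted p = 0.905). Bpifb1 measured 1.25, 1.14 and 0.501 FPKM in controls and 1.76, 0.0596 and 0.311 FPKM in mutants, with a log2 difference of -0.31 ± 0.36 (limma adjusted p = 0.579).

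The remaining 3 genes did not reach 1 FPKM in the 3 AT1 libraries that the filter asks for. Muc5b, the gel-forming mucin, measured 1.13, 0.0315 and 0.101 FPKM in controls and 1.78, 0.0598 and 0.142 FPKM in mutants. Reg3g, the antimicrobial lectin, measured 3.44, 0.219 and 0.867 FPKM in controls and 3.26, 0 and 0.562 FPKM in mutants. For both genes the A library was the highest of its arm, and the arms overlapped. Bpifa1 stayed at or below 0.372 FPKM in each AT1 library. With no filter on low values, limma adjusted p was 0.839 for Muc5b, 0.865 for Reg3g and 0.277 for Bpifa1, and that fit called 5.72% of 18317 genes higher and 2.9% lower.

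Of the 12612 genes tested in AT1 cells, 11.6% were called higher and 6.22% lower at an adjusted p under 0.05, against 0 of the 5 airway secretory genes that passed the filter. Before adjustment, the limma p was 0.0206 for Scgb3a2, 0.0582 for Scgb1a1, 0.0614 for Cyp2f2, 0.37 for Scgb3a1 and 0.424 for Bpifb1. Same-lettered AT1 libraries deviated together over all genes, so the fit with the letter as a replicate block is given beside the plain one. With the block, 3 of the 5 genes were called lower, and 15.1% of all genes were called higher and 10.8% lower. The limma adjusted p was 0.0342 for Scgb1a1, 0.0479 for Scgb3a2, 0.0152 for Cyp2f2, 0.0819 for Scgb3a1 and 0.422 for Bpifb1. Each of the first 3 genes was lower in the mutant than in the control of its letter in 3 of 3 pairs. With both A libraries left out, an alternative chosen after seeing the data, the log2 differences were -1.89 for Scgb1a1 (limma adjusted p = 0.119), -2.93 for Scgb3a2 (0.0684) and -1.45 for Cyp2f2 (0.0596). Without control A alone, they were -1.16, -2.06 and -0.84. Without mutant B they were -1.08, -1.40 and -1.07, and without mutant A -2.67, -3.26 and -2.23, with 0 of the 3 called.

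**Figure D2:**
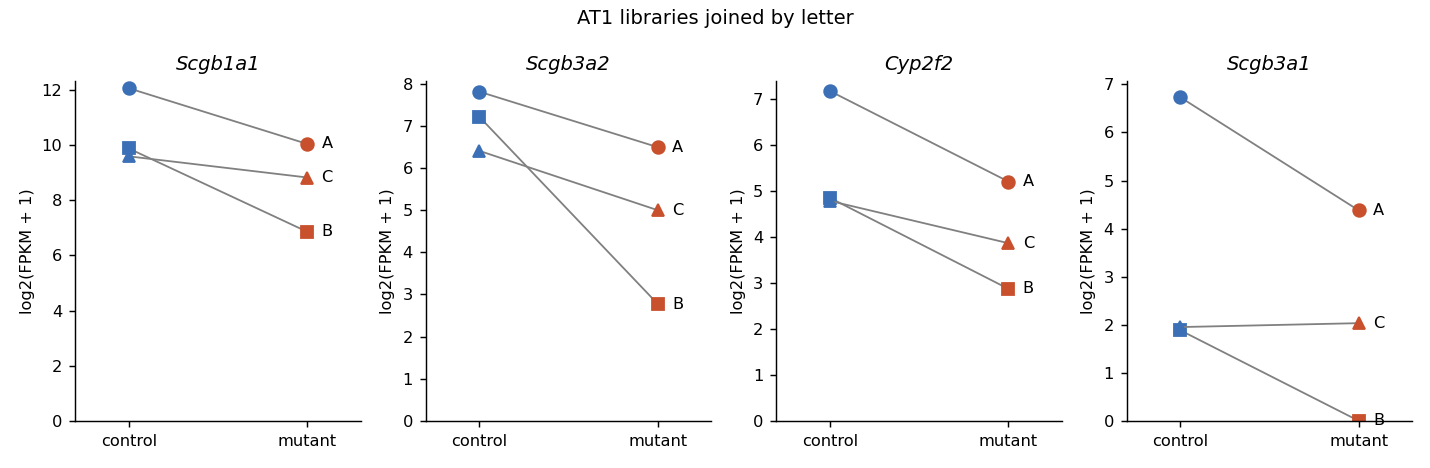
Level of the 4 most abundant airway secretory genes as log2(FPKM + 1) on the y axis in AT1 control (left) and mutant (right) libraries, joined by letter. Lines for Scgb1a1, Scgb3a2 and Cyp2f2 slope down in each pair, and the Scgb3a1 line of pair C is nearly flat.

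Levels in the AT1 libraries were also set against control lung, the tissue that holds the airways. These shares assume that both kinds of library were scaled alike, which was not tested, and they are a description. In AT1 control A, Scgb1a1 stood at 20.7% of its level in control lung, and in controls B and C at 4.56% and 3.74%. In AT1 mutants A, B and C it stood at 5.10%, 0.557% and 2.19%. Markers of another airway cell type were read in the same libraries. The 21 ciliated cell genes with a row summed to 198, 343 and 390 FPKM in controls A, B and C and 184, 236 and 241 FPKM in mutants, lowest in the A library of each arm. Tppp3, a tubulin-binding protein gene, made up most of that sum, at 167 to 361 FPKM in controls and 170 to 223 FPKM in mutants. Without Tppp3, the other 20 genes summed to 30.4, 34.3 and 28.4 FPKM in controls A, B and C and 13.8, 12.9 and 20.2 FPKM in mutants, lower in the mutant in 3 of 3 letter pairs, as were Scgb1a1, Scgb3a2 and Cyp2f2. The defining ciliated markers were low, with Foxj1, the master regulator of ciliated cells, at 2.38 to 4.22 FPKM in controls and 1.83 to 2.22 FPKM in mutants (log2 -0.43 ± 0.20, limma adjusted p = 0.173). Among the ciliated cell genes, 2 of 8 tested fell and 0 rose, Ccdc153 (log2 -1.11 ± 0.23, limma adjusted p = 0.0202) and Dynlrb2 (log2 -1.23 ± 0.29, limma adjusted p = 0.0281). The count was 3 with the letter block and 0 without control B, mutant A or mutant B. Endothelial genes (4 of 12 fell) and leukocyte genes (3 of 14 fell, or 7 with the letter block) were also present, with sums of 441 to 859 and 370 to 863 FPKM in controls and 261 to 322 and 250 to 370 FPKM in mutants. Over all genes tested in AT1 cells, 6.22% were called lower, or 10.8% with the letter block. The part of any of these lists in the values of the airway secretory genes was not tested.

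Ratios between members, which do not change with the scaling of a library, were compared over 6 combinations of gene pair and cell type. Per 100 FPKM of Scgb1a1, Cyp2f2 measured 3.37, 2.97 and 3.45 FPKM in AT1 controls and 3.42, 5.52 and 3.01 FPKM in AT1 mutants. These ratios lay close together in 5 of the 6 libraries although Scgb1a1 itself ranged from 114 to 4254 FPKM. An exact two-sided permutation test between the arms gave p = 0.5 (adjusted over the 6 ratios, 0.7). With 3 libraries against 3 its p cannot go below 0.1, so it could not call a difference. Scgb3a2 measured 5.25, 15.8 and 10.9 FPKM per 100 FPKM of Scgb1a1 in controls and 8.49, 5.09 and 6.86 FPKM in mutants (exact p = 0.4, adjusted 0.7). Scgb3a1 was less even, at 2.48, 0.288 and 0.374 FPKM per 100 in controls and 1.89, 0 and 0.686 FPKM in mutants. Muc5b per 100 FPKM of Scgb1a1 did not overlap between the arms, at 0.0265, 0.00336 and 0.0132 FPKM in controls and 0.170, 0.0523 and 0.0315 FPKM in mutants. Its exact p was 0.1 (adjusted 0.3), the smallest that 3 libraries against 3 can give, and most of its values rest on levels below 1 FPKM.

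**Figure D3:**
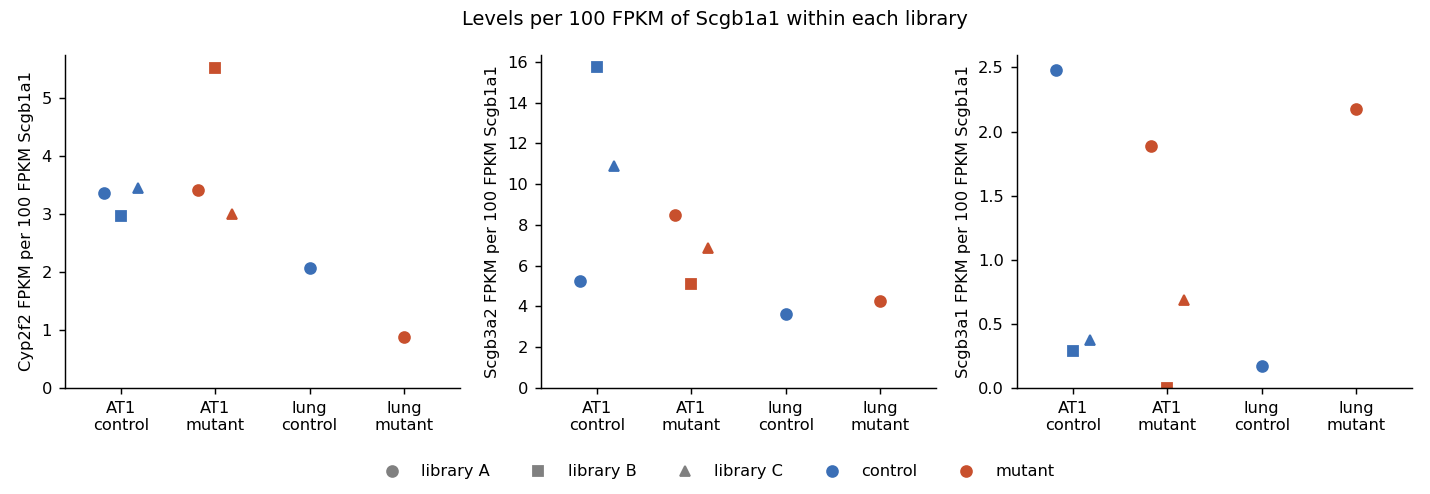
FPKM of Cyp2f2, Scgb3a2 and Scgb3a1 per 100 FPKM of Scgb1a1 in the same library on the y axes, for AT1 and lung libraries. Cyp2f2 per 100 FPKM of Scgb1a1 sits between 2.97 and 3.45 in 5 AT1 libraries, at 5.52 in mutant B, and at 2.07 and 0.885 in control and mutant lung.

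Genes with the most similar pattern were sought over the 6 AT1 libraries, 3 control and 3 mutant, which share their preparation, and are given as a description. For Scgb1a1, the highest Pearson correlations of log2(FPKM + 1) were those of Azi2 (r = 0.98) and Cyp2f2 (r = 0.98), followed by Ctage5, Tcf25 and Mfsd4 (each r = 0.98). With only 6 libraries, 18 genes had r above 0.95, and Scgb3a2 came at rank 25 (r = 0.945). Azi2 itself ranged only from 14.1 to 23.4 FPKM. For Scgb3a2, Pgm5, Gab2, Pxmp2 and Rnf185 each had r = 0.98. For Reg3g the highest were Camk2n1 (r = 0.99), Rbm48, Riok3, Usp47 and Tmed10. Among the other airway secretory genes, Muc5b (r = 0.93, rank 40 of all genes) and Scgb3a1 (r = 0.93, rank 42) came nearest.

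Other genes listed for airway secretory cells did not move as one group in AT1 cells. Of 30 club cell genes tested, 8 rose and 5 fell (13 and 8 with the letter block), with a median log2 difference of 0.33 against 0.00 over all genes tested, where the shares called over all genes were 11.6% and 6.22% (15.1% and 10.8% with the block). Sec14l3, a lipid-transfer protein gene, fell from 601, 239 and 402 FPKM in controls to 26.5, 40.5 and 65.9 FPKM in mutants (log2 -3.19 ± 0.40, limma adjusted p = 0.00463). Its level in control lung, 253 FPKM, lay within the range of the AT1 controls, and which cells expressed it was not tested. Gsta4, which encodes a glutathione transferase that detoxifies lipid aldehydes, rose from 51.2, 10.1 and 14.5 FPKM to 1022, 383 and 359 FPKM (log2 4.65 ± 0.61, limma adjusted p = 0.00503). Pir and Nupr1 also rose, by 2.11 and 1.13 on the log2 scale (limma adjusted p = 0.00503 and 0.00761). Leaving out mutant A left 4 club genes called higher and 1 lower.

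Of 11 goblet and secretory defence genes tested in AT1 cells, 6 rose and 0 fell, where 11.6% of all genes were called higher and 6.22% lower. Of the 6, 4 were below 1 FPKM in each control and passed the filter only through the mutants, so the count is a description. With no filter, 4 of 17 were called higher, in a fit that called 5.72% of 18317 genes higher. Tff2, a trefoil factor that stabilises mucus, measured 0.732, 0.112 and 0 FPKM in controls and 55.7, 17.5 and 21.9 FPKM in mutants (log2 4.54 ± 0.42, limma adjusted p = 0.00193). Spdef, a transcription factor of goblet cell differentiation, measured 0.843, 0.337 and 0.477 FPKM and 13.5, 7.49 and 5.62 FPKM (log2 2.60 ± 0.30, limma adjusted p = 0.00357). Foxa3, a forkhead factor of goblet cells, rose by 2.33 on the log2 scale (limma adjusted p = 0.00508), and Tff1, listed at 0 in the 3 controls, measured 23.1, 3.06 and 3.78 FPKM in mutants (limma adjusted p = 0.0178). Galnt12 and Wfdc2 were the others that rose. Agr2, which folds mucins, measured 1.10, 0.299 and 0.198 FPKM in controls and 11.4, 0.542 and 2.31 FPKM in mutants (limma adjusted p = 0.168). The count of 6 was 0 without mutant A, to 1 without mutant B, to 1 without mutant C and to 1 without both A libraries, which also left fewer of the genes past the filter.

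Among 20 regulators of airway secretory cells, 3 rose and 2 fell in AT1 cells, near the shares of all genes, 11.6% and 6.22%. With the letter block, 5 rose and 5 fell, where 15.1% of all genes were called higher and 10.8% lower. Ehf and Elf3, ETS factors of mucosal epithelium, rose by 2.48 and 2.32 on the log2 scale (limma adjusted p = 0.00559 and 0.0102), and Foxa1 rose by 0.82 (0.0141). Of the 2 that fell, 1 was Nkx2-1, the mutated gene itself, and the other was Hey1, a target of Notch signalling (limma adjusted p = 0.0439). Of 7 immune-induced epithelial defence genes tested, 1 rose, the chemokine gene Ccl20, from 0 to 0.0921 FPKM in controls to 3.59 to 6.99 FPKM in mutants (log2 2.57 ± 0.23, limma adjusted p = 0.00182). It passed the filter only through the mutants, so it could not be tested when any 1 mutant library was left out. The count of the list called higher was then 0. Muc1, a transmembrane mucin, rose from 35.6 to 84.2 FPKM in controls to 118 to 379 FPKM in mutants (log2 1.88 ± 0.44, limma adjusted p = 0.027). Its call was lost with no filter, with both A libraries out, and without control B, mutant A or mutant C. Pltp, a lipid-transfer member of the BPI family, fell (log2 -0.77 ± 0.21, limma adjusted p = 0.0428). That call was lost with equal upper quartiles, with no filter, with both A libraries out, and when control B or 1 of the mutants was left out. Of the other secretoglobins and Reg lectins, 0 were called, with 1 and 0 genes past the filter, and with the letter block the 1 secretoglobin, Scgb1c1, was called lower.

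In AT2 cells, where 2 of the 5 genes with a row passed the filter, Cyp2f2 was lower in the mutants and Bpifb1 was higher in 2 of 3 mutant libraries. Cyp2f2 measured 71.4, 61.1 and 63.3 FPKM in controls A, B and C and 35.3, 33.2 and 36.5 FPKM in mutants A, B and C. The arms did not overlap and each was narrow. Cyp2f2 fell by 0.88 ± 0.09 on the log2 scale (limma adjusted p = 0.000261), where 32.2% of the 10594 genes tested were called higher and 22.5% lower. With libraries rescaled to equal totals, the difference was -0.26 and the call was lost (limma adjusted p = 0.292). That rescaling moves the median of all genes from 0.09 to 0.64. Transcripts encoded in mitochondria took 35.2, 29.1 and 14.9% of the summed FPKM in AT2 controls and 14.0, 12.5 and 9.66% in AT2 mutants. Rescaled without mitochondrial and small RNA loci, an alternative chosen after seeing the data, Cyp2f2 fell by 0.56 (limma adjusted p = 0.00826).

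Bpifb1 measured 0.739, 1.05 and 1.22 FPKM in AT2 controls and 0.863, 4.69 and 6.55 FPKM in AT2 mutants. Mutant A lay within the control range, while mutants B and C lay above each control. The log2 difference was 1.11 ± 0.48 (limma adjusted p = 0.0833). It was called with libraries rescaled to equal totals (log2 1.47, limma adjusted p = 0.000486), rescaled without mitochondrial and small RNA loci (1.31, 0.0388) and without mutant A (1.72, 0.00106). Without mutant C the difference was 0.71 (limma adjusted p = 0.24). Per 100 FPKM of Cyp2f2, Bpifb1 measured 1.56 ± 0.463 FPKM in controls and 11.5 ± 8.07 FPKM in mutants (SD, n = 3), with an exact permutation p of 0.1 (adjusted 0.3), the smallest possible.

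The other 3 genes with an AT2 row were near 0. Scgb3a1 measured 0, 0.105 and 3.37 FPKM in controls and 0, 0.303 and 0.514 FPKM in mutants, with the P9 library of each arm the highest. Muc5b measured 0.0438, 0.0595 and 0.0830 FPKM in controls and 0.0297, 0.0234 and 0.0265 FPKM in mutants, and Bpifa1 was listed at 0 in the 3 mutants and reached 0.137 FPKM in controls. With no filter, limma adjusted p was 0.62 for Scgb3a1, 0.136 for Muc5b and 0.189 for Bpifa1, in a fit that called 14.4% of 22250 genes higher and 11.6% lower. Muc5b was thus below 0.1 FPKM in each AT2 library.

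Relatives of these genes were called in AT2 cells. Scgb1c1, another secretoglobin gene, fell from 40.9, 43.3 and 29.8 FPKM in controls to 3.54, 7.56 and 7.12 FPKM in mutants (log2 -2.50 ± 0.26, limma adjusted p = 0.000252). Of 22 other secretoglobins with a row, 1 passed the filter and 20 were listed at 0 in each AT2 library. Bpifb5, a BPI fold gene of the same family as Bpifb1, fell from 52.6, 60.3 and 57.6 FPKM to 4.99, 13.7 and 14.9 FPKM (log2 -2.37 ± 0.35, limma adjusted p = 0.00116). Pltp and Lbp, the lipopolysaccharide-binding protein gene, also fell (limma adjusted p = 0.00208 and 0.0457), so that 3 of 3 tested relatives of Bpifb1 fell, where 22.5% of all genes did. The count was 2 with equal totals, without mitochondrial and small RNA loci, with the letter block, with postnatal day as a covariate, with no filter and without any 1 control library.

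Among 24 club cell genes tested in AT2 cells, 10 rose and 10 fell, with a median log2 difference of -0.08 against 0.09 over all genes tested. Over all genes tested, 32.2% were called higher and 22.5% lower. Cbr2, a carbonyl reductase gene, fell from 2510, 2800.4 and 1994 FPKM to 139, 216 and 177 FPKM (log2 -3.78 ± 0.22, limma adjusted p = 2.72e-05). Its level in control lung, 2073 FPKM, lay within the range of the AT2 controls, and which cells expressed it was not tested. Gsta3, a glutathione transferase gene, rose from 12.6, 14.3 and 12.3 FPKM to 50.5, 51.8 and 52.5 FPKM (log2 1.90 ± 0.08, limma adjusted p = 1.29e-05). Cyp2s1, a cytochrome P450 gene, rose by 4.06 on the log2 scale, opposite to Cyp2f2 (limma adjusted p = 1.34e-05), and Pir rose by 2.63 (1.34e-05). Of 13 goblet and secretory defence genes tested, 7 rose and 3 fell, and 3 of the 7 were below 1 FPKM in each control. Tff2 rose from 0.439, 0.881 and 0.860 FPKM to 48.0, 109.9 and 104 FPKM (log2 5.60 ± 0.31, limma adjusted p = 2.5e-05). Foxa3, Spdef and Galnt12, a mucin-type glycosyltransferase gene, also rose, by 2.44, 2.17 and 0.73. Without any 1 mutant library, the 3 that were below 1 FPKM in each control did not pass the filter, and the count that rose was 4 of 10.

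The 18 regulators tested in AT2 cells gave 5 higher and 8 lower calls, or 8 and 4 with libraries rescaled to equal totals, where 32.2% of all genes were called higher and 22.5% lower. Nkx2-1, Cebpa, a C/EBP factor of club and AT2 cells, Hey1 and Cebpd fell, by 2.08, 2.55, 1.15 and 2.27 on the log2 scale (limma adjusted p from 8.01e-05 to 0.000566). The 8 lower calls include Nkx2-1, the mutated gene itself. Of 6 ciliated cell genes tested, 3 rose and 2 fell, and 2 of the 3 were below 1 FPKM in each control. Those that fell were Dynlrb2, at 12.8 to 17.5 FPKM in controls and 1.20 to 2.42 FPKM in mutants, and Ccno. Ccno measured 4.88 to 18.4 FPKM in controls and 1.12 to 1.36 FPKM in mutants. Foxj1 measured 0.584 to 1.58 FPKM in controls and 0.437 to 1.03 FPKM in mutants and did not pass the filter. The ciliated genes summed to 107 to 191 FPKM in controls and 221 to 303 FPKM in mutants. Tppp3 made up most of that sum, at 74.9 to 161 FPKM in controls and 212 to 293 FPKM in mutants. The part of the ciliated genes in the Bpifb1 and Cyp2f2 differences was not tested. Endothelial genes (12 of 12 tested) and leukocyte genes (9 of 11) fell in the same libraries. Of 9 immune-induced epithelial defence genes 4 rose and 3 fell, and of 3 other mucins 0 were called, with Muc1 at 684 ± 41.2 and 599.9 ± 122 FPKM (SD, n = 3).

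The difference between cell types was tested on the 3 airway secretory genes that could be, over 12 libraries, as the AT2 effect minus the AT1 effect. It was 1.42 ± 0.66 for Bpifb1 (log2; limma adjusted p = 0.197), 0.75 ± 0.87 for Cyp2f2 (0.622) and 0.96 ± 1.80 for Scgb3a1 (0.777). So 0 of 3 were called by limma, where 4.02% of 10336 genes were called higher and 4.28% lower. Before adjustment, the limma p was 0.0535 for Bpifb1, 0.409 for Cyp2f2 and 0.606 for Scgb3a1. The intervals were wide, from -1.16 to 2.65 for Cyp2f2 and from -0.03 to 2.87 for Bpifb1 (95%, unadjusted). With the letter as a replicate block, they were 0.08 to 1.41 for Cyp2f2 and 0.25 to 2.59 for Bpifb1. The unadjusted limma p was then 0.033 for Cyp2f2, 0.0235 for Bpifb1 and 0.213 for Scgb3a1. After adjustment, 0 of 3 were called (limma adjusted p = 0.122, 0.1 and 0.382). That block also joined AT2 libraries by letter, although AT2 letters were not taken as pairs, so these intervals are a description. Bpifb1 was called with libraries rescaled to equal totals (limma adjusted p = 0.0496) and without AT2 mutant A (0.0422). Without AT1 control A, the Cyp2f2 difference was -0.039 and that of Scgb3a1 was -0.65.

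In whole lung at P14, with 1 library per group and so no test, the 8 genes separated. The mucin, the proximal secretoglobin, both BPI fold genes and the lectin were higher in the mutant, Scgb1a1 and Scgb3a2 were near their control level, and Cyp2f2 was lower. Muc5b measured 1.05 FPKM in the control and 70.2 FPKM in the mutant, 66.8 times as much. Scgb3a1 measured 34.9 and 432 FPKM, 12.4 times as much. Bpifb1 measured 2.29 and 36.5 FPKM, 15.9 times as much. Reg3g measured 3.22 and 38.0 FPKM, 11.8 times as much. Bpifa1 measured 0.122 and 3.65 FPKM, 29.9 times as much, from a control level far below 1 FPKM.

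Scgb1a1 measured 20542 FPKM in the control lung and 19852 FPKM in the mutant lung, and Scgb3a2 741 and 847 FPKM. Both differences are small, at -0.05 and 0.19 on the log2 scale, and their signs depend on the scaling. Scgb1a1 was at 0.15 with libraries rescaled to equal totals, and Scgb3a2 was at -0.15 when rescaled without mitochondrial and small RNA loci. Cyp2f2 measured 425 and 176 FPKM, 2.42 times lower. On the log2(FPKM + 1) scale, 5 of the 8 were past 2-fold higher and 1 was past 2-fold lower, where 11.9% of 13717 genes were past 2-fold higher and 11.4% lower. Bpifa1 entered only through the mutant library. Muc5b had the 41st largest increase of those genes on this scale. The same 5 and 1 were past 2-fold under each of the 4 alternatives, with Muc5b from 4.86 to 5.93 and Cyp2f2 from -1.61 to -1.08. Small RNA loci took 32.9% of the summed FPKM in the control lung and 2.61% in the mutant lung.

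**Figure D4:**
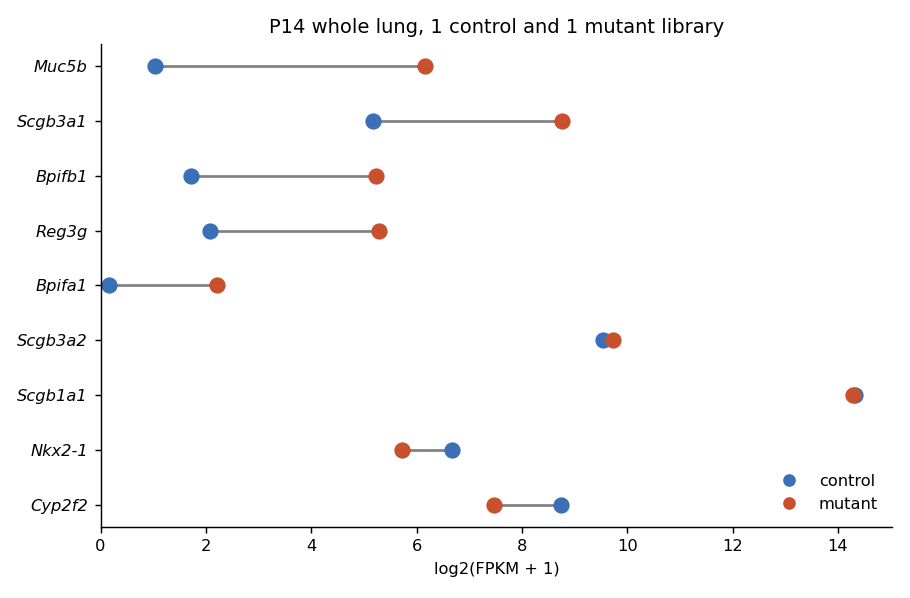
Level of the 8 airway secretory genes and of Nkx2-1 as log2(FPKM + 1) on the x axis in the 1 control (blue) and 1 mutant (orange) P14 lung library, ordered by the difference. Muc5b, Scgb3a1, Bpifb1, Reg3g and Bpifa1 lie far to the right in the mutant, Scgb3a2 and Scgb1a1 nearly coincide, and Cyp2f2 lies to the left.

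Within the lung libraries, Cyp2f2 per 100 FPKM of Scgb1a1 was 2.07 FPKM in the control and 0.885 FPKM in the mutant. Both values lay below those of each AT1 library. Scgb3a2 was 3.61 and 4.27 FPKM per 100, and Scgb3a1 was 0.170 and 2.18 FPKM per 100. Muc5b was 0.00512 and 0.354 FPKM per 100. The mix of the 8 transcripts thus differed between these 2 libraries at about the same level of Scgb1a1.

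Other goblet and defence genes were higher in the mutant lung with them. Of 16 goblet and secretory defence genes at 1 FPKM or more, 15 were past 2-fold higher and 0 lower, with Creb3l1 the remaining one. Of the 15, 8 were below 1 FPKM in the control and entered the count only through the mutant library. Tff1 measured 0.125 FPKM in the control and 817 FPKM in the mutant, Tff2 10.9 and 1373 FPKM, Agr2 0.518 and 154 FPKM, and Pigr, the receptor that carries immunoglobulin A into the lumen, 1.66 and 186 FPKM. Of 14 immune-induced epithelial defence genes, 13 were past 2-fold higher and Nos2 was past 2-fold lower, and 8 of the 13 entered only through the mutant library. Such counts are descriptions, beside 11.9% of all genes past 2-fold higher. Saa3, an acute-phase protein gene, measured 9.91 and 1547 FPKM, Duoxa2, a maturation factor of an epithelial oxidase, 0.107 and 44.0 FPKM, and Chil3 and Chil4, chitinase-like protein genes of mouse lung, 33.6 and 1152 FPKM and 0.0566 and 28.0 FPKM. Of 4 other mucins, 3 were past 2-fold higher, with Muc1 at 114 and 900 FPKM, Muc4 at 1.38 and 10.7 FPKM and Muc5ac, the mucin of allergic airways, at 0.267 and 3.63 FPKM.

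Not all relatives of the members followed them. Bpifb5 measured 5.27 FPKM in the control lung and 0.558 FPKM in the mutant lung, Pltp 200.2 and 62.1 FPKM, and Scgb1c1 10.3 and 3.36 FPKM. Over all lung genes counted, 11.9% were past 2-fold higher and 11.4% lower. Of 33 club cell genes, 15 were past 2-fold higher and 2 lower (12 and 6 when rescaled without mitochondrial and small RNA loci). Those furthest apart were Gsta4, at 67.2 and 1662 FPKM, Gsto1, an omega-class glutathione transferase gene, at 96.5 and 2159 FPKM, Chad, a cartilage matrix protein gene also known from club cells, at 11.9 and 141 FPKM, and Cyp2s1, at 22.1 and 160.1 FPKM. Among regulators, 6 of 20 were past 2-fold higher and 1 lower (4 and 5 under the same rescaling). Elf3 measured 8.14 and 367 FPKM, Klf5, a Krüppel-like factor of epithelium, 23.4 and 192 FPKM, Foxa1 13.8 and 58.1 FPKM, and Ehf 7.30 and 31.8 FPKM.

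Genes of other cell types also differed between the lung libraries, and their part in these values was not tested. Of 18 ciliated cell genes, 1 was past 2-fold higher and 0 lower, and Foxj1 measured 14.8 and 18.5 FPKM. Of 14 AT1 cell genes, 10 were past 2-fold lower, of 14 AT2 cell genes 8, and of 12 endothelial genes 10. Of 14 leukocyte genes, 6 were past 2-fold higher, and the list summed to 446 FPKM in the control and 998 FPKM in the mutant. The shares over all lung genes counted were 11.9% higher and 11.4% lower.

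**Figure D5:**
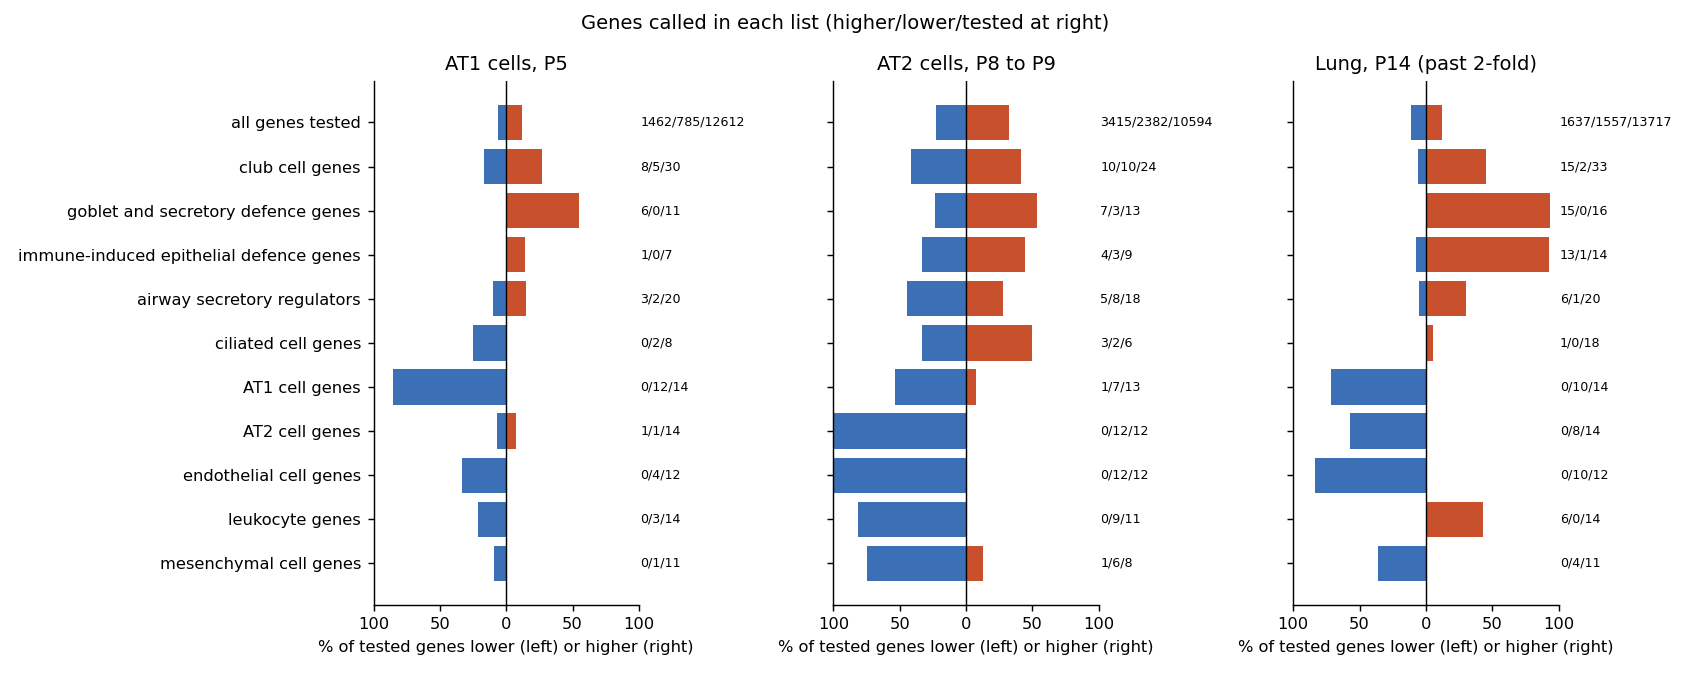
Percent of the tested genes of each list that were called lower (blue, left) or higher (orange, right) in AT1 cells, AT2 cells and lung, where called means an adjusted p under 0.05 in the sorted cells and past 2-fold in lung; numbers at the right give genes higher, lower and tested. Goblet and secretory defence genes reach 15 higher of 16 in lung, and club cell genes are called in both directions in each panel.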

How the data were processed

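RNA-seq of 14 mouse libraries was analysed. Per the labels' protocols, an mRNA isolation kit and paired-end reads of 76 nucleotides were used. Cufflinks 2.2.1 with Cuffdiff and Cuffnorm, Bowtie2 2.2.3, TopHat2 2.0.14 and the mm10 build are named per the submitters' processing notes. The sources used here do not state the annotation or strand use. The values deposited by the authors are FPKM per locus, in separate tables for AT1 cells, for lung and for AT2 cells. In the AT2 table, 1441 loci without a name, with 4.45 to 8.39% of the summed FPKM, were left out of the tests.

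Genes with at least 3 of the compared libraries at 1 FPKM were tested on log2(FPKM + 1) with limma 3.58.1 (trend, two-sided, Benjamini-Hochberg over all genes tested, threshold 0.05) in R 4.3.3. Each adjusted p in the text comes from limma, except those of the ratios. In lung, genes whose higher value reached 1 FPKM were counted past 2-fold, with no test. Ratios were compared with SciPy 1.17.1. FPKM hold no read counts, so no counting interval was given. Steps of low values gave no clear relative depth, since at most 33.85% of low loci shared the commonest ratio between libraries.

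Correlations of deviations from arm means over all genes were 0.237, 0.357 and 0.477 for same-lettered AT1 libraries and -0.245 to -0.102 for the others, so AT1 letters were taken as pairs on this check of the data. In AT2 cells they were 0.12, -0.133 and 0.115, and letters were not taken as pairs. Alternatives were other pseudocounts, filters, scalings, a letter block, age as a covariate and leaving out libraries.

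The genes and lists were chosen with earlier results of these data known. Named genes are the 8, Nkx2-1, up to 4 called genes per list and comparison by adjusted p (in lung by ratio) or else up to 2 by level, and the 5 most similar patterns for Scgb1a1, Scgb3a2 and Reg3g. For Scgb3a2, 4 of the 5 are given, and the other is not reported here. Since these 3 have no AT2 row in use, similarity was taken over the 6 AT1 libraries. Agr2, Foxj1, Tppp3 and genes repeated between comparisons were named beside them after their values were seen.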

Additional observations from a re-analysis of the deposited data

How the results depend on the processing

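In AT1 cells, all genes called higher went from 1462 to 686 with equal totals, and all called lower from 785 to 1359 with the letter as a replicate block, where 3 members were called lower against 0. Leaving out both A libraries gave 446 higher and 299 lower, and leaving out 1 library gave 278 to 1146 higher and 195 to 844 lower. Scgb3a1 (-1.39) ran from -2.51 to 0.22, positive without control A. In AT2 cells, all called higher went from 3415 to 6018 and all called lower from 2382 to 806 with equal totals, where 1 member was called higher and 0 lower, against 0 and 1. Rescaling without mitochondrial and small RNA loci gave 1295 lower and 1 member higher, as did the block (1 member higher, Bpifb1, adjusted p = 0.0378), although AT2 letters share only a label. Leaving out 1 AT2 library gave 0 to 1 members higher. For the AT2 minus AT1 difference, calls higher and lower (415 and 442) were 3008 and 230 with equal totals and 1 member higher, 242 and 691 with equal upper quartiles, 673 and 672 with the block, and 2764 higher without mitochondrial and small RNA loci. Leaving out 1 library gave 181 to 584 higher, 223 to 489 lower and 0 to 1 members higher. There, Scgb3a1 (0.96) ran from -0.65 without AT1 control A to 2.08, with -0.11 without AT1 mutant B, and Cyp2f2 (0.75) from -0.039 without AT1 control A to 1.36. In lung, genes past 2-fold lower went from 1557 to 2417 without mitochondrial and small RNA loci, where Scgb3a2 turned from 0.19 to -0.15, and Scgb1a1 turned from -0.05 to 0.15 with equal totals. The causes were not tested. Each other member kept its sign under the alternatives in which it was tested.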

Other observations

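Itln1, which encodes a lectin known from goblet cells and mesothelium, differed sharply between AT2 libraries of the same arm. It measured 33.9, 0 and 2.07 FPKM in controls A, B and C and 0, 405 and 1.02 FPKM in mutants A, B and C, with a log2 difference of 0.98 ± 2.32 (limma adjusted p = 0.741). Mutant B held the highest value, and 2 of the 6 libraries are listed at 0. In AT1 cells it was listed at 0 in each of the 6 libraries, and in lung it measured 0 and 0.455 FPKM.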
